A study of Mus musculus with 6 samples.

Results

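The S100 proteins are small calcium-binding proteins, and 7 of their genes, S100a1, S100a4, S100a6, S100a10, S100a11, S100a13 and S100a16, are described here in C2C12 myotubes exposed to sorafenib. They were taken by symbol from the 55356 genes of the deposited table, which also lists 11 other genes of the family. The choice was made with the sorafenib response of these data in view, so the change of the 7 genes is given as a description, and no test of it is offered as evidence.

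C2C12 is a mouse myoblast line whose cells fuse into multinucleate myotubes in culture, and sorafenib is a cancer drug that inhibits several protein kinases. One group of 3 cultures received 20 µM sorafenib for 24 h, and the other 3 received 0.1% DMSO, the solvent, for the same time. The series calls the replicates independent experiments, and there was a single dose, a single time and a single cell line. Messenger RNA was selected by its poly(A) tail and made into stranded libraries, with normalized totals of 77972419 to 78898086 in DMSO and 70211431 to 70598400 in sorafenib. All 11 myotube markers checked, among them Myh3 (embryonic myosin heavy chain, 587479 ± 32663 normalized counts in DMSO, SD, n = 3), were expressed in both groups.

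An S100 protein carries a pair of EF-hands, the helix-loop-helix motif that binds calcium, and works mostly as a dimer. Calcium opens a surface that grips target proteins such as annexins, myosins and channels, so the family passes calcium signals on to membranes and the cytoskeleton. S100A10 is the exception, since its EF-hands no longer bind calcium and it is held in its active shape. In muscle the best known member is S100A1, which binds the ryanodine receptor and the calcium pump of the sarcoplasmic reticulum. Several members are also released from cells and act on receptors such as RAGE, the product of Ager.

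The members lie on chromosome 3 in 2 places. S100a1, S100a13, S100a16, S100a4 and S100a6 lie within 101.8 kb, measured between the lower ends of the genes in the deposited table, and S100a11 and S100a10 lie 3009.5 and 3044.0 kb from S100a1. S100a1 and S100a13 are transcribed away from each other, with start sites 105 bases apart in RefSeq and 43 in GENCODE. Upstream sequence is shown for this pair, for the most abundant members of the first place, for S100a11 of the second place, and for S100a3, which lies beside S100a4 and changed in the opposite direction. It is RefSeq sequence on GRCm38.p6, upstream of the RefSeq transcription start and trimmed of annotated exons. For the S100a1 and S100a13 pair it is the stretch between the GENCODE starts. Capitals mark matches to any of the 7 motifs searched on both strands, which were an E-box (CANNTG), AP-1 (TGANTCA), the core of the antioxidant response element (TGACNNNGC), a GC box (GGGCGG), the CHOP-ATF composite element (TGATGNAA), a TEAD site (CATTCC) and a TATA box (TATAAA).
S100a1 and S100a13, between the starts, chr3:90514393-90514434, + strand: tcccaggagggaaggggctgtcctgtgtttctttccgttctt
S100a4, chr3:90603520-90603769, + strand: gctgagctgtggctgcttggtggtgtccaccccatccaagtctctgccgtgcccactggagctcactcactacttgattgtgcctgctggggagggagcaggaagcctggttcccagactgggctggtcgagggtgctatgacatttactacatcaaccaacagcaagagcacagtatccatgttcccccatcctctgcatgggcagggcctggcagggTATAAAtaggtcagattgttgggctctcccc
S100a6, chr3:90612644-90612881, + strand: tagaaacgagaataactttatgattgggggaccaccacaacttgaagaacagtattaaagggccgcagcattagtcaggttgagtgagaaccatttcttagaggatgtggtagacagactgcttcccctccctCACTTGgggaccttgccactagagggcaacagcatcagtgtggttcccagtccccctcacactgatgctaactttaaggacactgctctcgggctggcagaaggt
S100a11, chr3:93520246-93520487, + strand: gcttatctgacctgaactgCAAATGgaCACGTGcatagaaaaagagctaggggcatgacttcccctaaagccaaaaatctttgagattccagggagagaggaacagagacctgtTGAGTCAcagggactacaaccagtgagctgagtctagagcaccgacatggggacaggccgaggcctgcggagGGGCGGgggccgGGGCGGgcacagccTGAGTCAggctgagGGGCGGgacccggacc
S100a3, the start nearest S100a4, chr3:90599964-90600213, + strand: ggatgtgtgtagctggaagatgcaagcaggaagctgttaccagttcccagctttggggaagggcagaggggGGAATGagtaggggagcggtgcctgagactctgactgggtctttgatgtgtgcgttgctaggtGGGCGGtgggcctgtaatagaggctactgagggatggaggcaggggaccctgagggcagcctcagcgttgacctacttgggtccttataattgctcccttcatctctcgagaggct

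The stretch between S100a1 and S100a13 held none of these letters. The S100a4 stretch held a TATA box, which 12.4% of all 32851 upstream windows of 250 bases hold, and the S100a6 stretch held 1 E-box, which 66.2% hold. Among the members shown, S100a11 differed in its letters, with 3 GC boxes (in 32.7% of all windows), 2 AP-1 matches (6.7%) and 2 E-boxes. The same kinds of match occurred at the second start of S100a16, a member of the first place whose sequence is not shown. That window held 4 E-boxes, 1 AP-1 match and 1 GC box. In the S100a3 stretch there were a GC box and a TEAD match (12.6%). Over the full 250 bases, 6 members had an entry in the table of upstream sequences, and S100a10 had none. Of these 6, 4 held an E-box, 2 an AP-1 match, 2 a GC box, 1 an antioxidant element core (in 10.2% of all windows) and 0 a CHOP-ATF element (3.5%) or a TEAD site. These 6 members had 7 starts, since S100a16 had 2 and was counted if either window held a match. The shares are per window, so they cannot be set directly against these counts per gene. The matches do not show that a factor binds.

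All 7 members were lower in sorafenib, by 1.31-fold to 4.68-fold. Their summed level went from 123233.6 ± 1697 normalized counts in DMSO to 46282.8 ± 275 in sorafenib (SD, n = 3 each), 2.66-fold lower, and from 0.155% to 0.160% of all normalized counts to 0.065% to 0.066%. In each member the 3 sorafenib libraries lay below the 3 DMSO libraries, and 39.4% of all genes tested did so. The fit across all genes, limma with Benjamini-Hochberg adjustment, called each of the 7 lower, as it did 37.8% of all 16645 genes, and it called 76.6% of all genes in either direction. At least 2-fold lower and called were 5 members, against 17.4% of all genes. Their median log2 change was −1.64, and that of all genes 0.02. Nothing is read from these counts, because the same comparison chose the members. In bulk RNA, fewer cells of a type and less RNA per cell cannot be told apart.

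**Figure D1:**
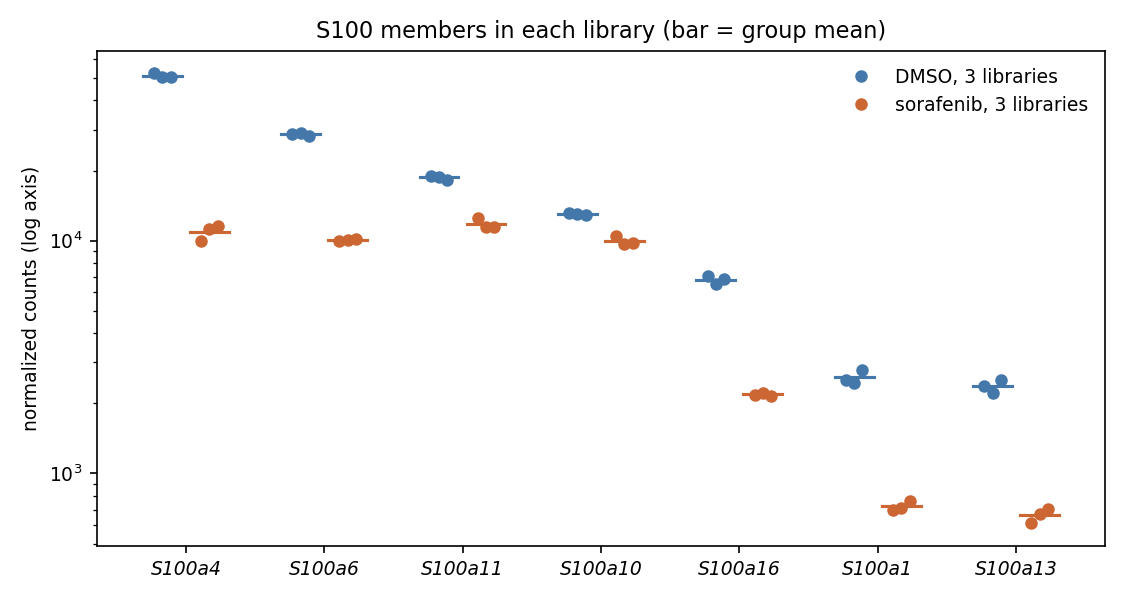
Normalized counts (log axis) of the 7 S100 members, ordered by their DMSO mean, with 1 point per library and a bar at each group mean. In every member the sorafenib points lie below the DMSO points, far apart in S100a4 (10922.5 against 51121.8) and close in S100a10 (9941.4 against 13035.6).

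S100a4 encodes a protein that binds non-muscle myosin and loosens its filaments, is known for promoting cell motility, and is often used as a fibroblast marker. It was the most abundant member in DMSO and the one with the largest decrease of the 7. For S100a4 the DMSO libraries held 52331.6, 50609.4 and 50424.3 normalized counts, and the sorafenib libraries 9972.7, 11208.8 and 11586.0. The groups were far apart, and replicate 1 was the lowest of the sorafenib libraries. The mean was 4.68-fold lower, a log2 change of −2.23 ± 0.05 (SE). S100a4 (ENSMUSG00000001020.9) lies on chromosome 3 at 90603771 to 90606045, + strand. It shares exon sequence on the same strand with Gm42674, a predicted gene that also overlaps S100a3. Gm42674 had between 1.11 and 6.80 normalized counts in the DMSO libraries and between 5.50 and 17.6 in the sorafenib libraries, far below S100a4.

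S100a6, or calcyclin, encodes a protein that binds annexin A11 and the calcyclin-binding protein and is associated with proliferating cells. Its levels were 28672.5, 28980.4 and 28238.2 in DMSO and 9971.7, 10098.8 and 10118.6 in sorafenib. The replicates lay close together in both groups, with an SD of 372.9 and 79.7 (n = 3 each). S100a6 (chromosome 3, 90612882 to 90624181, + strand) was 2.85-fold lower, a log2 change of −1.51 ± 0.03. The ratio of S100a4 to S100a6 counts was between 1.746 and 1.825 in the DMSO libraries and between 1.000 and 1.145 in the sorafenib libraries, and these ranges are apart.

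S100a1, the member of striated muscle, had 2528.6, 2444.9 and 2778.1 normalized counts in DMSO and 694.6, 713.9 and 763.6 in sorafenib. The mean was 3.57-fold lower, with a log2 change of −1.83 ± 0.07. S100a13 encodes a protein that carries FGF1 and interleukin-1 alpha out of cells by a route that avoids the endoplasmic reticulum. It had 2380.4, 2206.2 and 2526.6 in DMSO and 611.5, 670.3 and 701.0 in sorafenib, 3.59-fold lower (log2 change −1.84 ± 0.07). These oppositely transcribed genes kept nearly the same proportion throughout. The ratio of S100a13 to S100a1 counts lay between 0.902 and 0.941 in the DMSO libraries and between 0.880 and 0.939 in the sorafenib libraries, and these ranges overlap. S100a1 spans 90511034 to 90514392 on the − strand and S100a13 spans 90514435 to 90524581 on the + strand of chromosome 3. Their annotated exons do not overlap in GENCODE M21.

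S100a16, a widely expressed member whose role is less settled, had 7077.1, 6480.2 and 6852.8 normalized counts in DMSO and 2180.9, 2225.9 and 2149.9 in sorafenib. The groups were well separated, and the mean was 3.11-fold lower (log2 change −1.64 ± 0.04). S100a16 lies at 90537254 to 90543151 on chromosome 3, + strand.

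S100a11 and S100a10, the members of the second place, had the smallest decreases of the 7. S100A11 binds annexins A1 and A6 and is known for a part in membrane repair. S100a11 had 19006.4, 18760.8 and 18295.3 normalized counts in DMSO and 12543.5, 11412.5 and 11399.8 in sorafenib, 1.59-fold lower (log2 change −0.67 ± 0.04). It lies on chromosome 3 at 93520488 to 93526287, + strand. Its annotated pseudogene S100a11-ps was listed at 0 in all 6 libraries.

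S100A10, also called p11, forms a tetramer with annexin A2 beneath the plasma membrane and serves as a docking site for plasminogen. S100a10 had 13181.1, 12994.7 and 12931.0 normalized counts in DMSO and 10436.6, 9636.4 and 9751.2 in sorafenib. The groups did not overlap, but the mean was only 1.31-fold lower, a log2 change of −0.39 ± 0.04. Scaling the libraries to equal totals made it −0.24 and it stayed called lower. It lies on chromosome 3 at 93555080 to 93564643, + strand. In the authors' deposited table the log2 fold change was −0.39 for S100a10, −0.66 for S100a11 and −1.51 to −2.22 for the other 5 members; 21.0% of the 29160 genes above 0 in that table were lower at an adjusted p under 0.05.

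**Figure D2:**
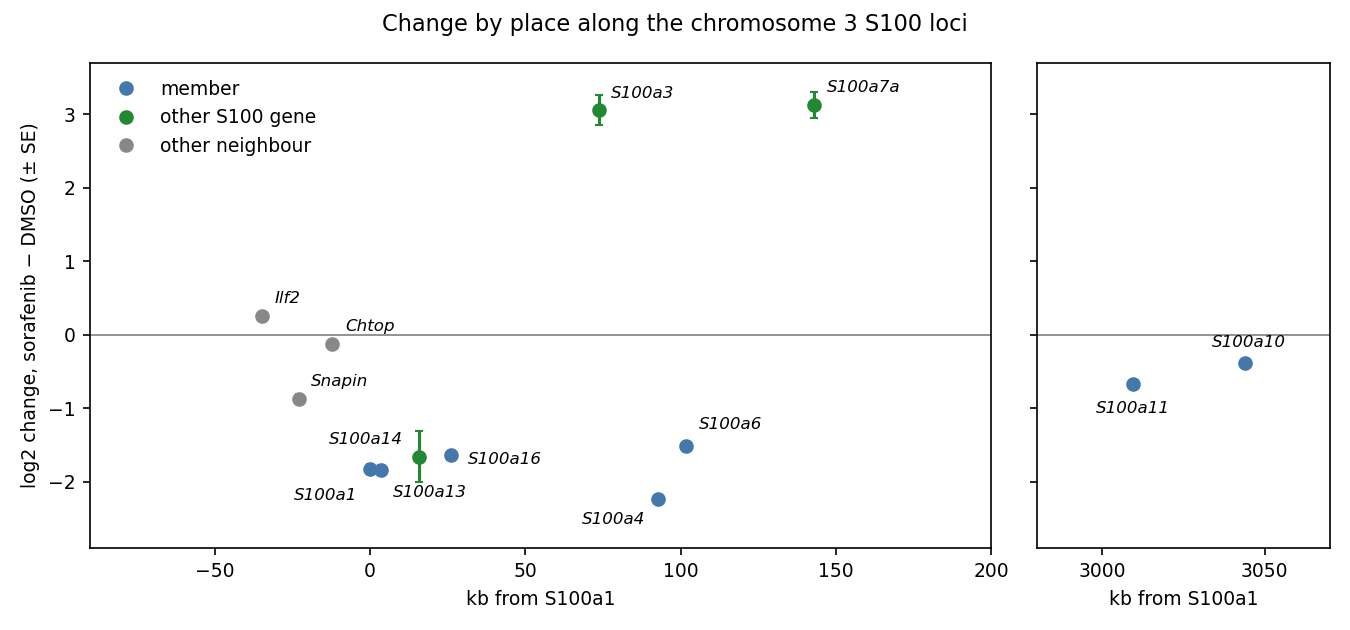
Log2 change (sorafenib minus DMSO, ± SE from limma) of the tested S100 genes on chromosome 3 and of their other tested neighbours, by distance in kb from S100a1, using the lower end of each gene. The members of the first place lie at −1.51 or below, S100a11 and S100a10 at −0.67 and −0.39, and S100a3 and S100a7a at 3.06 and 3.13.

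The makeup of the S100 transcripts shifted with these unequal decreases. Per kilobase of transcript, S100a4 had 120921.6 to 125495.4 normalized counts in DMSO, followed by S100a6 at 47260.6 to 48502.8, S100a11 at 35802.9 to 37194.4 and S100a10 at 22256.5 to 22686.9. Then came S100a16 at 7372.3 to 8051.4, S100a1 at 3899.4 to 4430.7 and S100a13 at 3085.6 to 3533.7, and no neighbours in this order overlapped. In sorafenib S100a4 (23915.3 to 27784.1) and S100a11 (22308.8 to 24547.0) overlapped at the top. S100a10 (16585.9 to 17963.2) and S100a6 (16689.1 to 16935.0) overlapped below them. S100a4 made up 49.9% to 50.4% of the summed level per kilobase in DMSO and 27.3% to 31.4% in sorafenib. S100a11 held 14.8% to 15.1% of it in DMSO and 25.2% to 28.0% in sorafenib, and the share of S100a10 went from 9.12% to 9.20% to 19.0% to 20.5%. S100a6 held 19.3% to 19.9% and 19.1% to 19.4%. With the union of all coding exons as the length, S100a11 stood above S100a4 in sorafenib (22308.8 to 24547.0 against 17076.5 to 19839.0). By that length S100a11 (35802.9 to 37194.4) and S100a6 (34905.0 to 35822.5) overlapped in DMSO, and S100a11 had the higher mean (36570.4 against 35389.8). The order of these genes thus depends on the length chosen.

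**Figure D3:**
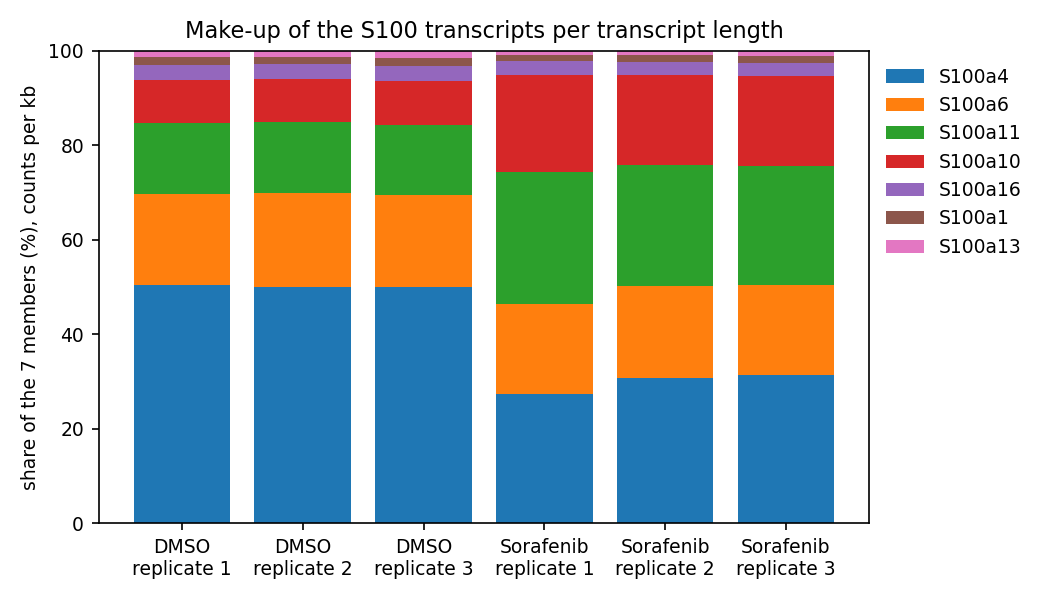
Share (%) of each member in the summed S100 level per kilobase of transcript, 1 stacked bar per library. The S100a4 part shrinks from 49.9% to 50.4% in DMSO to 27.3% to 31.4% in sorafenib, and the parts of S100a11 and S100a10 widen.

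The rest of the family was low. Of the 11 other S100 genes in the table, S100a9, S100a7l2 and S100z were listed at 0 in all 6 libraries, and 4 reached the minimum for testing. S100a3 and S100a7a, which are best known from hair follicle and skin, rose. S100a3 had 31.5, 33.7 and 24.0 normalized counts in DMSO and 289.3, 277.9 and 200.3 in sorafenib, 8.60-fold higher (log2 change 3.06 ± 0.20, limma adjusted p = 8.16e-07). S100a7a had 17.9, 20.7 and 21.6 in DMSO and 216.7, 165.6 and 171.2 in sorafenib, 9.20-fold higher (log2 change 3.13 ± 0.18, limma adjusted p = 3.2e-07). In both genes every sorafenib library lay above every DMSO library, as in 40.1% of all genes tested, and 12.6% were called at least 2-fold higher. They lie in the same place as S100a4 and S100a6, which were lower, at 90560578 to 90602702 (S100a3) and 90654017 to 90658669 (S100a7a).

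S100b and S100a14 reached the minimum only through DMSO. S100b, the glial member (on chromosome 10), had 11.7, 10.7 and 11.2 normalized counts in DMSO and 1.83, 0.921 and 0.917 in sorafenib (limma adjusted p = 3.81e-04). S100a14, a gene of epithelia between S100a13 and S100a16, had 22.6, 17.5 and 17.5 in DMSO and 5.28, 8.01 and 3.55 in sorafenib (limma adjusted p = 0.00205). A gene that passes only through the group where it is high had to differ, so no weight is put on these calls. S100a8, a subunit of calprotectin, stood at 0 in the DMSO libraries, while the sorafenib libraries had 1.83, 1.82 and 0.923. S100a2 (0 to 2.49), S100a5 (0 to 2.92) and S100g (0 to 1.19) stayed at the level of a few reads. Together the other genes made up 0.062% to 0.071% of the family's counts in DMSO and 0.806% to 1.103% in sorafenib. Among 7 fused-type S100 genes, which code for large proteins of hair and epidermis, 5 were listed at 0 throughout. Tchh, which encodes trichohyalin of the hair follicle, had 10.7, 3.57 and 5.60 in DMSO and 237.4, 176.5 and 202.4 in sorafenib (log2 change 4.86 ± 0.33, limma adjusted p = 1.18e-06). Tchh reached the minimum through sorafenib.

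**Figure D4:**
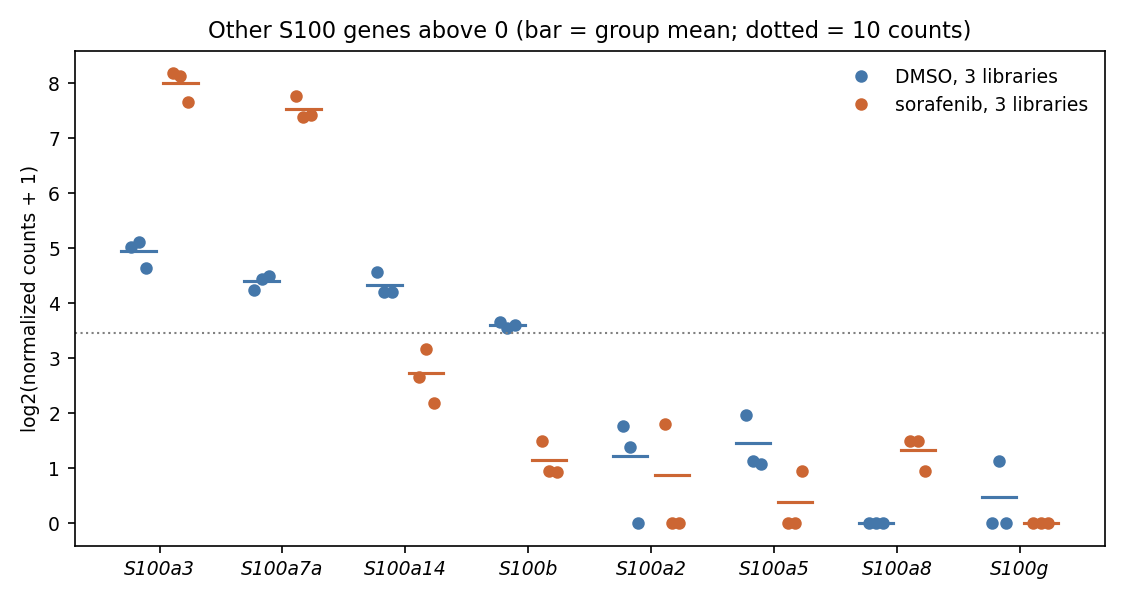
The 8 other S100 genes above 0 in any library, as log2(normalized counts + 1), with 1 point per library, a bar at each group mean and a dotted line at the minimum of 10. S100a3 and S100a7a are higher in sorafenib, and S100a14 and S100b drop below the line.

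The genes beside the members of the first place did not all follow them. Within 50 kb of a member, by the positions in the deposited table, 6 genes were tested. All 6 lay near members of the first place, and none near S100a11 or S100a10. Of the 6, S100a3, S100a7a and S100a14 belong to the family. Of the other 3, Snapin, which encodes a SNARE-binding protein, fell from 6220.6 ± 21.6 to 3408.8 ± 334 (log2 change −0.87 ± 0.07, limma adjusted p = 2.53e-06). Ilf2, for an RNA-binding protein, rose from 4427.8 ± 111 to 5313.8 ± 75.0 (limma adjusted p = 1.19e-04). Chtop, for an mRNA export factor, changed by −0.12 ± 0.04 (limma adjusted p = 0.0136), but by 0.04 after scaling to equal totals and 0.02 with quantile normalization, where it did not pass, and its call was also lost without DMSO replicate 3 (limma adjusted p = 0.058).

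The annexins, which bind membranes when calcium rises and are the main partners of S100A10, S100A11 and S100A6, went both ways. Of 12 listed, 10 were tested, 4 were higher and 5 lower, with a median log2 change of −0.31. Over all genes tested, 38.8% were called higher and 37.8% lower. Anxa2, the partner of S100a10, fell from 45277.5 ± 746 to 30072.0 ± 1074 (1.51-fold, log2 change −0.59 ± 0.04, limma adjusted p = 4.82e-07). The ratio of Anxa2 to S100a10 counts lay between 3.42 and 3.53 in the DMSO libraries and between 3.00 and 3.06 in the sorafenib libraries. Anxa6, a partner of S100a11 with the highest count of the annexins in DMSO, fell from 69721.8 ± 2795 to 32334.0 ± 1423 (log2 change −1.11 ± 0.04, limma adjusted p = 3.73e-08). Anxa1, its other partner, had 25168.9 ± 274 and 24518.8 ± 624 and did not pass (limma adjusted p = 0.301). With quantile normalization or equal totals Anxa1 passed as higher, by 0.14 and 0.12. Anxa11, the partner of S100a6, fell 3.46-fold (log2 change −1.79 ± 0.07, limma adjusted p = 5.27e-08). Anxa3, which is not known as a partner of a member, rose from 12302.5 ± 489 to 38220.1 ± 1750, 3.11-fold (limma adjusted p = 4.8e-09).

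Of 30 intracellular partners of S100 proteins, which include 4 of the annexins, 25 were tested. Of these, 17 were lower and 5 higher, against 37.8% and 38.8% of all genes tested, and the median log2 change was −0.59. With equal totals 15 were lower and 8 higher, and with quantile normalization 15 and 7. The tested muscle targets of S100A1 were among the lower ones, by unequal amounts. Ryr1, the ryanodine receptor, fell from 93685.0 ± 3510 to 22733.3 ± 2135, 4.12-fold, and Atp2a1, the fast-muscle calcium pump, from 71406.8 ± 5839 to 11876.7 ± 1464, 6.01-fold. Atp2a2, another calcium pump, with higher counts than Atp2a1 in both groups, fell only 1.59-fold, from 130450.4 ± 5721 to 82228.2 ± 510. With quantile normalization the Atp2a2 change of −0.08 did not pass (limma adjusted p = 0.084). Ttn, for titin and the partner with the highest count in DMSO, fell 3.47-fold (limma adjusted p = 5.97e-06). Partners of S100a4 went both ways. Myh9, the heavy chain of non-muscle myosin that S100A4 binds, fell from 137125.5 ± 4488 to 88488.7 ± 5030 (log2 change −0.63 ± 0.05), but with quantile normalization its change of −0.05 did not pass. Ppfibp1, which encodes liprin beta, fell 2.04-fold (limma adjusted p = 1.12e-08).

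Partners that rose were Trp53, Hltf, Mdm2, Cacybp and Stip1. Trp53, the tumour suppressor p53 that S100A4 can bind, rose from 5379.9 ± 120 to 11134.4 ± 152, 2.07-fold (limma adjusted p = 1.06e-08). Cacybp, which encodes the calcyclin-binding protein of S100A6, rose from 7540.4 ± 221 to 10277.8 ± 261 (log2 change 0.45 ± 0.04, limma adjusted p = 3.85e-06). Ahnak, the giant scaffold bound by S100A10 with annexin A2, had 134887.6 ± 11483 and 146166.8 ± 2144 and did not pass (limma adjusted p = 0.0868), though it passed as higher with quantile normalization, equal totals, the replicate block, and without DMSO replicate 2 (log2 changes of 0.67, 0.27, 0.12 and 0.17). Of the cargo released with S100A13, Fgf1, low in sorafenib and carried past the minimum by DMSO, fell from 30.9 ± 4.51 to 9.47 ± 0.560 (limma adjusted p = 3.06e-04), and Il1a was at 0 to 1.95 in every library.

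Of 8 receptors for released S100 proteins, 4 were higher and 3 lower (median 0.14), shares near those of all genes tested (38.8% and 37.8%). One of the 4, Alcam (log2 change 0.15 ± 0.06, limma adjusted p = 0.043), did not pass in 6 of the 13 alternatives. The largest change of the list was that of Cd36, a scavenger receptor, which fell from 5641.9 ± 77.4 to 564.6 ± 148, 9.99-fold (limma adjusted p = 2.92e-06). Ager, for RAGE, was low and rose from 29.5 ± 7.33 to 147.6 ± 7.81, 5.00-fold (limma adjusted p = 6.76e-06). Tlr4, a receptor for S100A8 and S100A9, rose 1.83-fold, from 2958.6 ± 324 to 5421.7 ± 46.1. Mcam rose from 213.8 ± 12.9 to 1161.5 ± 224 (limma adjusted p = 3.47e-07). Bsg, for basigin and the receptor with the highest count in both groups, fell 1.24-fold, and Nptn, for neuroplastin, fell 1.97-fold (limma adjusted p = 2.96e-07).

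The plasminogen list, which bears on S100A10 as a docking site, had 4 higher and 4 lower of 9 tested (median −0.11). Serpinf2, among the 4 higher, had 2.34 to 6.60 in DMSO and reached the minimum only through sorafenib, so no weight is put on its call. The shares over all genes tested were 38.8% and 37.8%. Plat, for tissue plasminogen activator, rose from 6245.9 ± 317 to 13700.8 ± 528, 2.19-fold (limma adjusted p = 4.57e-08). Plaur, the urokinase receptor, rose 4.07-fold, while Plau, for urokinase itself, fell from 6382.8 ± 468 to 2322.1 ± 155, 2.75-fold. Eno1, a glycolytic enzyme that also binds plasminogen at the cell surface, had the highest count of the list in both groups and fell 2.05-fold. Enpp1, an ectoenzyme that makes pyrophosphate and is not part of the plasminogen system, stood on the list and fell 6.34-fold (limma adjusted p = 4.68e-09). Plg, for plasminogen, was at 1.64 to 5.75 in every library.

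Of 30 other cytosolic EF-hand proteins, 25 were tested. Of these, 23 were lower and 2 higher, and the median log2 change was −0.70. Over all genes tested, 37.8% were called lower and 38.8% higher. After scaling to equal totals 17 were lower and 2 higher. Tnnc1, for slow and cardiac troponin C and the highest of them in its mean count over all 6 libraries, fell from 145015.7 ± 6354 to 45524.1 ± 4838, 3.19-fold (limma adjusted p = 2.48e-07). Capn1, for calpain 1, a calcium-activated protease, fell 2.13-fold (limma adjusted p = 9.33e-09). Pdcd6, a penta-EF-hand protein of membrane repair, rose 1.21-fold (limma adjusted p = 7.12e-05).

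EF-hand proteins of the secretory pathway were divided, with 5 higher, 4 lower and 2 not passing of 11 tested (median 0.05). Among all genes tested, 38.8% were called higher and 37.8% lower. With equal totals 6 were higher and 3 lower, and with quantile normalization 7 and 3. Nucb2, for nucleobindin 2, rose from 1732.4 ± 89.0 to 11200.7 ± 335, 6.47-fold (limma adjusted p = 6.53e-10). Rcn1 and Rcn3, for reticulocalbins of the endoplasmic reticulum, rose 2.09-fold and 2.01-fold, and Rcn2 fell 2.08-fold. Smoc2, a secreted matrix protein, fell 8.54-fold (limma adjusted p = 2.32e-08). Smoc1, also called lower, had 2.79 to 8.29 in sorafenib and reached the minimum only through DMSO, so no weight is put on its call. Sparc, with the highest count in both groups, changed by −0.12 ± 0.03, but by 0.04 with equal totals and 0.41 with quantile normalization.

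**Figure D5:**
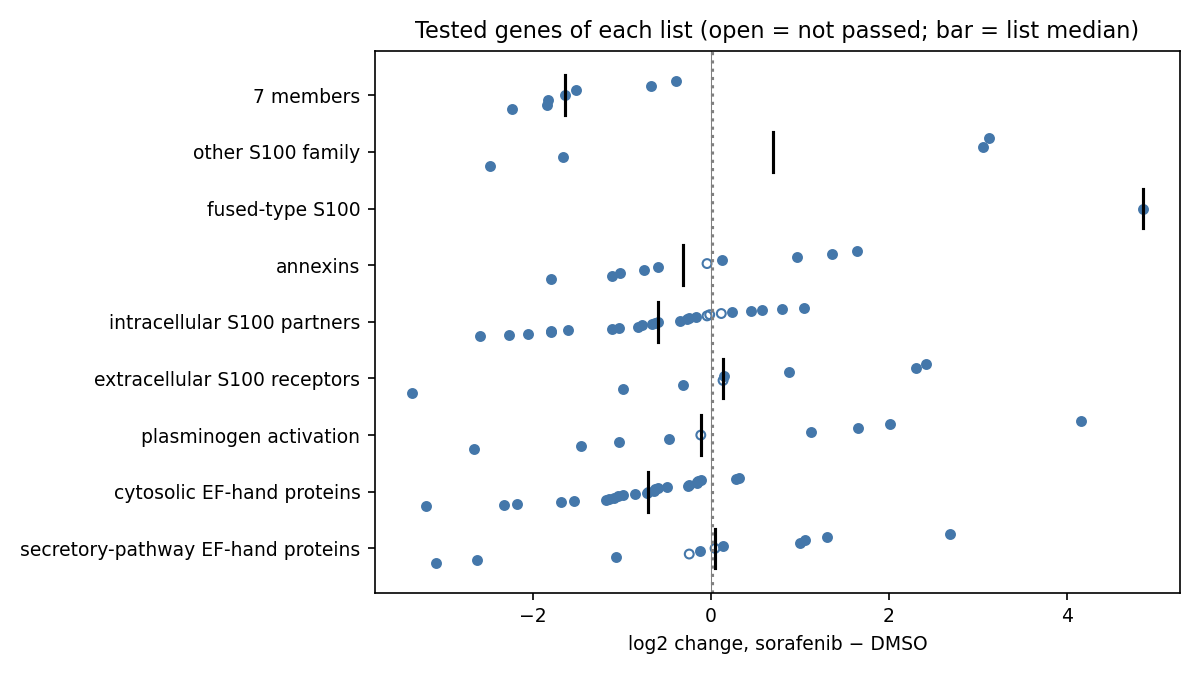
Log2 change (sorafenib minus DMSO) of every tested gene on each list, with open points for genes that did not pass in limma, a bar at the list median and a dotted line at 0.02, the median of all genes. The 7 members have a median of −1.64, the cytosolic EF-hand proteins −0.70 and the secretory-pathway EF-hand proteins 0.05. A total of 4 annexins appear also among the partners.

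Markers of cell states and of other cell types moved as well, and their part in the S100 values was not tested. Over all genes tested, 37.8% were called lower and 38.8% higher. All 11 myotube markers were lower, with a summed level of 1968562.4 to 2132306.3 in DMSO and 537305.0 to 645814.9 in sorafenib. Of the 10 fibroblast markers, 8 were tested and all 8 were lower, with sums of 316779.4 to 357160.4 and 106699.6 to 118903.9. Dpt, at 1.83 to 1.84 in sorafenib, reached the minimum only through DMSO, so no weight is put on its call. The call of Pdgfra (log2 change −0.38 ± 0.12) was lost with equal totals, without DMSO replicate 2 or 3, and without sorafenib replicate 3. Col1a2, highest in its mean over all 6 libraries though below Col3a1 in DMSO, fell 1.67-fold. Lum (0 to 4.48) and Thy1 (0 to 3.09) were near 0 in every library. Of 8 markers of cycling cells, 5 were lower and 2 higher, with sums of 24748.6 to 30599.7 and 20643.8 to 21903.9. Pcna, highest in its mean over all 6 libraries though below Top2a and Mki67 in DMSO, was 1.25-fold higher, while Top2a and Mki67 were 1.83-fold and 2.90-fold lower. Among 12 macrophage and leukocyte markers, 4 were tested, 3 were higher and 1 lower, with sums of 388.0 to 419.1 and 1006.6 to 1177.2. Cd79a, among the 3 higher, had 6.71 to 9.50 in DMSO and 16.5 to 20.1 in sorafenib. It reached the minimum only through sorafenib, so no weight is put on its call. Cd14 had the highest count, while Adgre1 and Cd52 were at 0 and Ptprc at 0 to 0.976. Of 6 glial markers, 4 were tested, with 1 higher and 1 lower. Their sums of 18282.6 to 18650.8 and 3074.2 to 3999.4 were mostly Erbb3, and Sox10 was at 0. Of 6 epithelial markers 2 were tested and lower, Krt14 and Cdh1, with sums of 1827.2 to 2037.6 and 297.8 to 370.3. Krt5 (0 to 2.75) and Epcam (0 to 0.913) were near 0.

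The gene nearest in pattern to each member, outside the family, was found among 12468 genes with a mean of at least 100, as the smallest root-mean-square difference over the 6 libraries in log2 values relative to the DMSO mean. It was Nrap, a muscle anchoring protein, for S100a1 (difference 0.026), Lmod2, a leiomodin of muscle thin filaments, for S100a13 (0.042), and Grtp1 for S100a4 (0.015). For S100a6 it was Adcy7, an adenylate cyclase (0.022), and for S100a16 Adamtsl5 (0.039). For S100a11 it was Axl, a receptor tyrosine kinase (0.030), and for S100a10 Msn, which encodes moesin (0.017). Such likeness is common here, since 60 genes lay within 0.1 of S100a4 and 822 within 0.1 of S100a10.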

How the data were processed

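The labels assign 3 libraries to DMSO and 3 to sorafenib. The signal values are normalized counts per gene that the authors deposited, and the submitters' processing notes name DESeq2. The base mean in that table is the average of these values over the 6 libraries. The authors' table also holds a log2 fold change, a standard error and Wald score, and p-values. The processing notes name bcl2fastq and GRCm38.p6; which quantifier was used is not given here. The most frequent smallest step of the low values gives roughly 65.5 to 79.9 M reads per library, but only 66.6% to 75.2% of values under 20 were whole multiples of it within 0.05, so no count model was used.

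Limma 3.58.1 (R 4.3.3, trended and robust empirical Bayes) was run on log2(normalized count + 1) for the 16645 genes with at least 10 in at least 3 libraries, with group as the only term and Benjamini-Hochberg adjustment over all of them at 0.05. On this scale the change of low genes is understated. Fold values are ratios of group means. On simulated data for sorafenib against DMSO (16108 genes), the step recovered 53.8%, 73.8% and 87.9% of genes changed by 0.5, 1 and 2 on the log2 scale, and 2.1% of its 144 calls were false. Only 65, 65 and 66 genes were changed in that simulation, whereas 76.6% of genes were called in the data. Its rates therefore need not hold for these calls.

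The members and lists were chosen with earlier results of these data known. The genes named are the 7 members, every other S100 gene above 0, the called gene of smallest p in each direction and the gene of each list with the highest mean count over all 6 libraries, likewise for each marker list, tested genes within 50 kb of a member, and for each member the gene nearest in pattern. Other genes named were chosen after their values were seen.

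Of 52080 identifiers shared with GENCODE M21 only 3.34% had the same position in the deposited table, so printed positions are those of GENCODE M21 on GRCm38. Level per length divides a value by the median length of the gene's protein-coding transcripts there. Upstream sequences are from RefSeq on GRCm38.p6. Alternatives were quantile normalization, equal totals, another pseudocount (0.1 or 10), another minimum (50 or none), a replicate block, and leaving out each library. Tables and plots were made in Python 3.11.15, using pandas 2.3.3 and, for plots, matplotlib 3.10.9.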

Additional observations from a re-analysis of the deposited data

How the results depend on the processing

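All 7 members stayed lower and past the threshold in limma under each of the 13 alternatives run, with log2 changes from −2.27 to −2.07 for S100a4 and from −0.43 to −0.24 for S100a10. Calls over all genes stayed within 1.5 times of 6453 higher and 6297 lower. With a minimum of 50, the other S100 family had 2 genes called in place of 4, because S100b and S100a14 were no longer tested. Equal totals moved the median gene up by 0.155 on the log2 scale. Under it the changes of Anxa1, Sugt1, Plgrkt, Calm2, Capn2, Sri, Ppp3r1, Sparc and Chtop turned positive, at 0.12, 0.15, 0.05, 0.01, 0.05, 0.00, 0.00, 0.04 and 0.04. Quantile normalization turned Anxa1 to 0.14, Sugt1 to 0.00, Capn2 to 0.08, Sparc to 0.41 and Chtop to 0.02, and leaving out DMSO replicate 1 or sorafenib replicate 1 turned Sugt1 to 0.01 and 0.02, where its change ranged from −0.03 to 0.02 over the 6 libraries left out in turn. Alcam, called at an adjusted p of 0.043 in limma, was lost in several alternatives. The cause of these shifts beyond the scaling was not tested. Correlations of deviations were 0.022 to 0.077 for libraries of the same replicate number and −0.069 to 0.025 for different numbers. Sorafenib replicate 2 was closer to DMSO replicate 3 (0.025) than sorafenib replicate 3 was (0.022). With 3 libraries per group, such weak correlations cannot decide whether the replicate numbers pair the samples. With the replicate block 6404 genes were called higher and 6231 lower, no member's call changed, and Ahnak passed as higher. Genes under 10 normalized counts rest on few reads.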
